A study of Mus musculus with 3 samples.

Results

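The CCM complex and the Rap1 branch of endothelial junction signalling were read in ribosome-associated RNA of the mouse heart through 10 genes, which were chosen by name from the known pathway. All 10 were found among the 17583 genes of the deposited table. They are Heg1, Krit1, Ccm2 and Pdcd10 of the CCM complex, the kinase gene Map3k3, the GTPase genes Rap1a and Rap1b, and the genes of the Rap1 effectors Rasip1 and Radil and of their partner Arhgap29. The RNA came from the hearts of 3 EC-RiboTag mice of the genotype Cdh5-CreERT2;Rpl22tm1.1Psam on a C57BL/6 background, 1 library a mouse, with no age or sex given in the labels. In these animals tamoxifen switches on a Cre recombinase that is driven by the promoter of Cdh5, the gene of VE-cadherin, and Cre then adds a hemagglutinin tag to the ribosomal protein RPL22, so that tagged ribosomes and their RNA can be pulled out of a heart homogenate. The Cdh5 promoter is active in blood and lymphatic endothelium alike, so no endothelial subtype was selected. The labels date the hearts to day 7 after coronary ligation, and the titles hold the letters Rz without an explanation. The paper abbreviates the remote zone as RZ, also for EC-RiboTag hearts 7 days after infarction, whose RNA it measured by qRT-PCR. Remote zone tissue of infarcted hearts is thus a documented reading of the titles. The paper's RiboTag methods and its account of the sequenced RiboTag RNA name neither a ligation nor a zone, so the state and the zone of the tissue are not settled here. All 3 mice were in the same condition, and neither an input nor an untagged library was analysed here, so levels were compared between genes and between mice but not between conditions.

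CCM proteins take their name from cerebral cavernous malformation, a disease of leaky, dilated capillaries that follows loss of KRIT1, CCM2 or PDCD10 in endothelial cells. In endothelium the transmembrane receptor HEG1 holds KRIT1 at the cell junction, KRIT1 binds the adaptor CCM2, and CCM2 binds both PDCD10 and the kinase MEKK3, the product of Map3k3. The complex restrains MEKK3, which otherwise drives the MEK5 and ERK5 cascade and raises the transcription factor genes Klf2 and Klf4. The small GTPase Rap1 joins this system because active Rap1 binds KRIT1 and brings it to junctions, and because Rap1 also recruits RASIP1 and RADIL, which act with the GTPase activating protein ARHGAP29 to lower RhoA activity and actomyosin tension. In the heart this network is known from the thinned myocardium and enlarged chambers of embryos that lack Heg1 and from its role in the endocardium.

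Levels are given first as the deposited value of each mouse, a read count that the authors divided by a size factor of its library and rounded, and then as that value per kilobase of the Ensembl canonical transcript where genes are compared. A longer transcript gives more reads at an equal number of molecules, and the value per kilobase takes this into account. Duplicate reads had been removed without molecular identifiers, which may hold down high levels per kilobase. Ratios between genes and gaps between marker lists may therefore be too small. The deposited values of the 3 libraries summed to between 7149102 and 7268785, and the gaps and doublings among low whole numbers put the depths at about 7319000, 6753000 and 7565000 reads for mice 1, 2 and 3. All 10 of 10 endothelial markers stood in the highest 10% of the 17475 genes with a known length, with a median of 711 per kilobase, and 4 of 7 cardiomyocyte markers did so as well, with a median of 575 per kilobase. Cardiomyocyte RNA was thus present too, and its part in the values below was not tested. The paper compared pulled-down RNA of EC-RiboTag hearts with the homogenate by qRT-PCR. It did so for endothelial, cardiomyocyte, leukocyte and fibroblast markers, and it describes an enrichment of endothelial RNA. In bulk RNA of this kind, fewer cells with a transcript and less of it in each cell cannot be told apart.

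The 10 genes together took 0.177%, 0.175% and 0.183% of the summed values of mice 1, 2 and 3. Of the 10, 5 were among the highest 10% of genes per kilobase, a class that by its definition holds 10.0% of all genes, and 9 stood above the median of all genes, which was 73.0 per kilobase. The median of the 10 genes was 341 per kilobase. The levels per kilobase ran, from high to low, Rap1b, Rasip1, Heg1, Ccm2, Map3k3, Rap1a, Arhgap29, Krit1, Pdcd10 and Radil. Among the 9 steps between neighbours in this order, 3 were larger than 2 SD of the ratio within mice and ran the same way in each mouse. These were the steps from Rap1b to Rasip1, from Arhgap29 to Krit1 and from Pdcd10 to Radil. The step from Rap1b to Rasip1 is not secure, because reads over bases that Rasip1 shares with a neighbouring gene were left out. The order of Heg1 and Ccm2, of Ccm2 and Map3k3, and of Rap1a and Arhgap29 changed between mice, and the other 3 neighbours kept their order in all mice by less than 2 SD. When stretches of a transcript with a copy elsewhere in the genome were left out, the mean of Rap1a rose to 428 per kilobase. Rap1a then stood above Map3k3 at 383 and Arhgap29 at 304. Over all 45 pairs, 42 kept 1 order in the 3 mice and 36 of these also differed by more than 2 SD. An exact two-sided sign-flip test on 3 mice cannot give a p under 0.25, and it gave 0.25 for each of the 42 pairs, or 0.268 after Benjamini-Hochberg adjustment over the 45 pairs. The order also rested on the length. Divided by the length of all annotated exons 3 of the 10 genes were in the highest 10%, and by the coding length 2, as is shown by the ranks under each length.

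**Figure D1:**
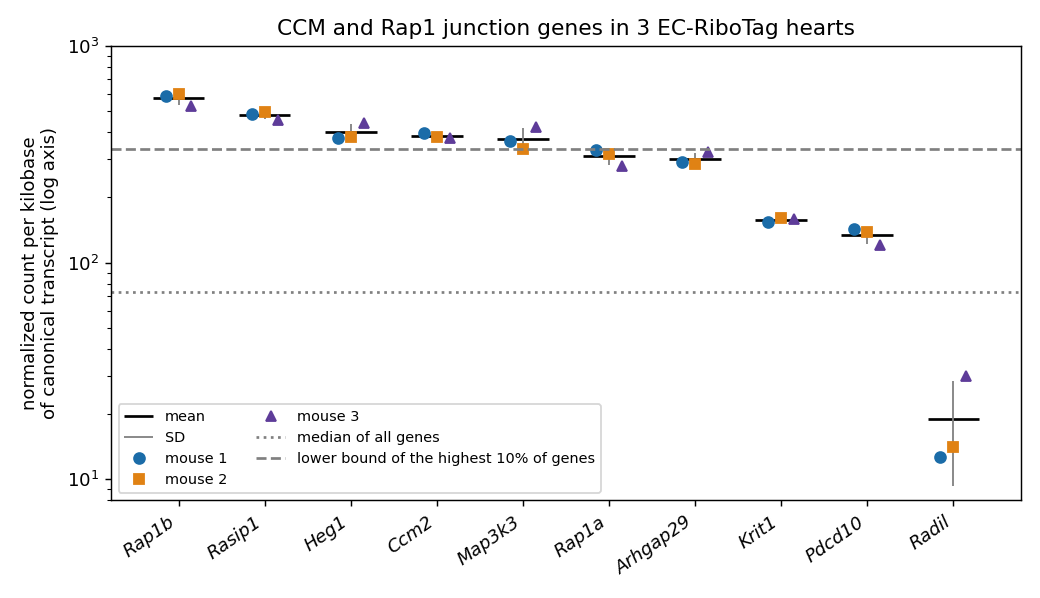
Normalized count per kilobase of canonical transcript (log axis) of the 10 genes, with 1 symbol a mouse, a black bar for the mean and a grey line for the SD over 3 mice. Rap1b, Rasip1, Heg1, Ccm2 and Map3k3 have means above the dashed line, which marks the lower bound of the highest 10% of genes (334 per kilobase), while Radil lies under the dotted median of all genes (73.0 per kilobase) in all 3 mice.

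**Figure D2:**
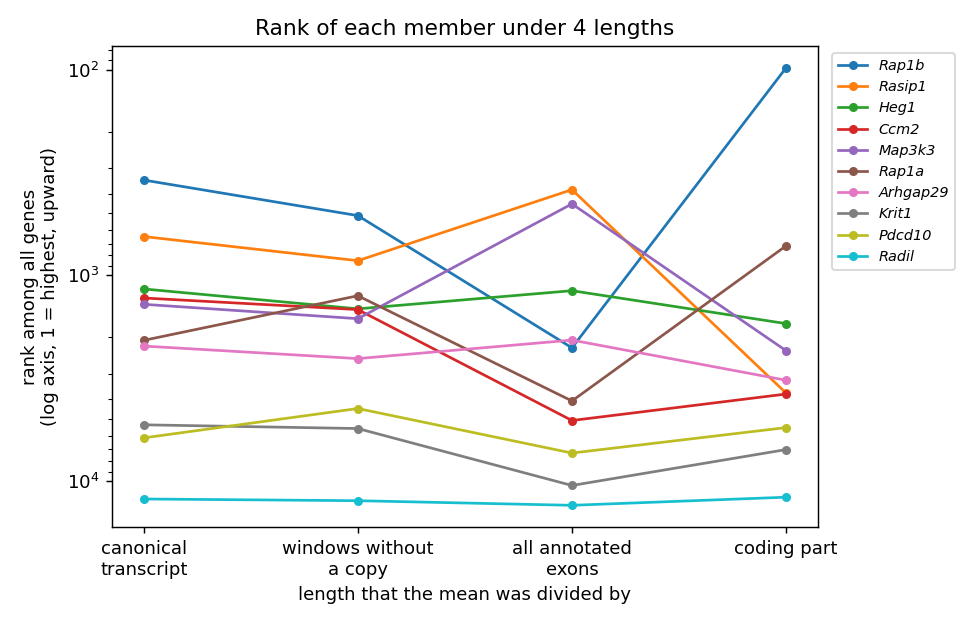
Rank of each of the 10 genes among all genes (log axis, rank 1 upward) by mean value divided by 4 lengths. Radil is the lowest with each length, Rap1b leads with all but the length of all annotated exons, where Rasip1 is the highest, and Rap1a rises from rank 2067 to 1255 when stretches with a copy in the genome are left out.

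Heg1 encodes the receptor of the complex, a mucin-like transmembrane protein whose short tail binds KRIT1. The gene (ENSMUSG00000075254) lies at chr16:33504740-33591946 on the plus strand of mm39, and its canonical transcript has 17 exons and 8950 bases. The deposited values were 3378, 3415 and 3933 in mice 1, 2 and 3, with mouse 3 above the other mice. Before any division by length this placed Heg1 at rank 20 of the 17583 genes, at the height of the inositol kinase gene Itpkb (3552, 3207 and 3653), the cardiac myosin gene Myh6 (3428, 3701 and 3643) and the hypoxia factor gene Epas1 (3609, 3448 and 3623). These 3 genes were the nearest to Heg1 in log2 distance, taken as the largest difference in any mouse (0.11 for Itpkb and 0.12 for both others). Per kilobase, Heg1 stood at 399 ± 34.7 (SD, n = 3) and at rank 1163, so division by length lowered its place in the table.

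Krit1 encodes the scaffold that joins HEG1, Rap1 and CCM2. The gene (ENSMUSG00000000600) lies at chr5:3853184-3895564 on the plus strand, with 17 exons and 3398 bases in the canonical transcript. Its values of 523, 546 and 540 were the most even of the 10 genes, with a coefficient of variation of 2.22%. Counting of reads alone would give 4.32%, so with 3 mice this evenness says nothing particular of the gene. The level was 158 ± 3.51 per kilobase (SD, n = 3), at rank 5317. Heg1 exceeded Krit1 in each mouse, with log2 ratios of the levels per kilobase of 1.29, 1.25 and 1.47 and a mean of 1.34 ± 0.12 (SD), or 2.52-fold. With the length of all annotated exons the mean log2 ratio was 3.22, and with the coding length 1.90, so the receptor stayed above its scaffold while the size of the gap followed the length used.

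Ccm2 encodes the adaptor that links KRIT1 to MEKK3 and PDCD10. The gene (ENSMUSG00000000378) lies at chr11:6496887-6546744 on the plus strand, with 10 exons and 1873 bases in its canonical transcript, the shortest of the 10. Its values were 741, 710 and 702, so the mice lay close together (coefficient of variation 2.87%, where counting alone would give 3.73%). Although its value was lower than that of Heg1 in each mouse, its level per kilobase of 383 ± 11 (SD, n = 3) could not be separated from that of Heg1, with log2 ratios of Heg1 to Ccm2 of -0.07, 0.01 and 0.23.

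Pdcd10, also called CCM3, encodes the protein that joins CCM2 to the GCKIII kinases and to the STRIPAK phosphatase assembly. The gene (ENSMUSG00000027835) lies at chr3:75423797-75464163 on the minus strand, with 8 exons and 2423 bases in the canonical transcript. Its values were 348, 337 and 291, with mouse 3 the lowest. At 134 ± 12.5 per kilobase (SD, n = 3) it was the lowest of the 4 CCM genes, below Krit1 in each mouse by log2 0.10, 0.21 and 0.40. This order turned when copies in the genome were taken into account. Of the 72-base stretches of the Pdcd10 transcript, as long as the reads, 32.2% occurred elsewhere in the genome, 756 of them in the processed pseudogene Gm14253 and its flanks at chr2:156188598-156189951, inside the gene Cnbd2. Reads from such stretches fit more than 1 place, and the authors removed reads of that kind. Per kilobase of stretches without a copy, Pdcd10 stood at 204, above Krit1 at 163. The pseudogene itself was listed at 4, 4 and 3.

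Krit1 and Pdcd10 each share their start region with a protein-coding gene on the other strand, which is why their promoters are shown here. The RefSeq promoter windows, from 250 bases before to 50 bases after an annotated start, are those of build GRCm38.p6, chr5:3802931-3803230 on the plus strand for Krit1 and chr3:75556803-75557102 on the minus strand for Pdcd10, and are written 5′ to 3′ in the sense of the gene. Capitals mark CCGGAAG, a longer form of the GGAA core to which ETS factors are known to bind, which was searched on both strands. The shorter core GGAA was not marked, and it stands in the Pdcd10 window too.
Krit1: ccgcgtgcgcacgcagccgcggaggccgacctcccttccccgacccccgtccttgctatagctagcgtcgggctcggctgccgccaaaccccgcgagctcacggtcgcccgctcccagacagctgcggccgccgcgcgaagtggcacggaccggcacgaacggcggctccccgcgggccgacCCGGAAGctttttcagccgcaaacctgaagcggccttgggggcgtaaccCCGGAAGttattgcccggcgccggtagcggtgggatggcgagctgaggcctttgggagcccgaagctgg
Pdcd10: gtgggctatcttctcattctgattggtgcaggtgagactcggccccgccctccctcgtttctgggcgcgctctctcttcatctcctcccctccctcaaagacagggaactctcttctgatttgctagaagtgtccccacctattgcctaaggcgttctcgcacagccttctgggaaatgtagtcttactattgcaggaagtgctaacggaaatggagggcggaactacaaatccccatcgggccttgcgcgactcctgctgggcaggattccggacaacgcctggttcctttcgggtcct

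The Krit1 window held 42 CG pairs and the Pdcd10 window 15, against a median of 7 over all 32851 RefSeq windows of 300 bases. The letters CCGGAAG stood in 8.86% of those windows, and in those of 2 of the 10 genes, Krit1 and Ccm2, where 9 of the 10 matched a window and Rap1a did not. A match to these letters is a description of the sequence only, and the absence of a match in the other windows says nothing about a factor. On the other side of the Krit1 start lies Ankib1, the gene of a ubiquitin ligase, whose annotated start in GENCODE overlaps that of Krit1 by 427 bases. Ankib1 was listed at 778, 876 and 958, or 131 per kilobase, next to 158 per kilobase for Krit1, so both genes of this pair were read at a like height. On the other side of the Pdcd10 start, 554 bases away, lies Serpini1, the gene of the protease inhibitor neuroserpin. Serpini1 was listed at 52, 78 and 62, or 15.4 per kilobase, against 134 per kilobase for Pdcd10, and was the lower of the pair in each mouse.

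Map3k3 encodes MEKK3, the kinase that CCM2 holds in check. The gene (ENSMUSG00000020700) lies at chr11:105975439-106046272 on the plus strand, with 16 exons and 3852 bases in its canonical transcript. Its values were 1408, 1286 and 1619, so mouse 3 was the highest, and the coefficient of variation of 11.7% was the largest of any of the 10 but Radil. The level was 373 ± 43.7 per kilobase (SD, n = 3). The paralogue Map3k2, which encodes MEKK2 and feeds the same MEK5 cascade, was listed at 585, 545 and 547, or 51.3 ± 2.07 per kilobase. Map3k3 was above Map3k2 in each mouse, with log2 ratios of the levels per kilobase of 2.77, 2.74 and 3.07 (mean 2.86 ± 0.18, 7.25-fold). With the coding length in place of the transcript length the mean log2 ratio was 1.34, still above 0 in each mouse.

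Rap1a and Rap1b encode the GTPases RAP1A and RAP1B, which act at the same junctional effectors. Rap1a (ENSMUSG00000068798) lies at chr3:105634583-105708652 and Rap1b (ENSMUSG00000052681) at chr10:117649776-117681940, both on the minus strand. Their coding parts are of equal length, 552 bases, and differ at 101 of them, so that 81.7% of the bases are the same. The longest run that both share is 20 bases, shorter than the reads. The stretch of 72 bases in which they are most alike, coding bases 295 to 366, is shown because it bears on whether reads of this length can be assigned to 1 of the genes. Capitals mark the 6 bases at which the genes differ there.
Rap1a: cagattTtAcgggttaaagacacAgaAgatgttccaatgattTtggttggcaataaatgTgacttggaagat
Rap1b: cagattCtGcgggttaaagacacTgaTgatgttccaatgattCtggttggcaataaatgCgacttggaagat

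Rap1b was the highest of the 10 genes per kilobase of canonical transcript. Its values of 1623, 1661 and 1459 gave 574 ± 39.0 per kilobase (SD, n = 3), at rank 344, in the highest 1.97% of genes. Its place above Rasip1 is not secure, since 654 of the 3216 bases of the Rasip1 transcript overlap Izumo1 on the same strand. Reads over both genes were left out, and the level of Rasip1 without these bases was not computed. Rap1a was listed at 818, 776 and 687, or 309 ± 27.2 per kilobase, and mouse 3 was the lowest for both genes. Rap1b exceeded Rap1a in each mouse, with log2 ratios of the levels per kilobase of 0.82, 0.93 and 0.92 and a mean of 0.89 ± 0.06 (SD), or 1.86-fold. The size of this gap depended on genomic copies, since 25.7% of the 72-base stretches of Rap1a have a copy elsewhere, 613 of them at the processed pseudogene Gm9392 (chr7:46469646-46470924), against 0.522% of those of Rap1b and a median of 0.770% over genes. Per kilobase of stretches without a copy, Rap1a stood at 428 and entered the highest 10% of genes, Rap1b stood at 592, and the mean log2 ratio was 0.47, or 1.38-fold.

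Rasip1 and Radil encode the paired Rap1 effectors that carry a Ras association domain, and Rasip1 is needed for the opening and upkeep of vessel lumens. Rasip1 (ENSMUSG00000044562, chr7:45276912-45288517, plus strand, 12 exons) was listed at 1554, 1595 and 1467, or 478 ± 20.3 per kilobase (SD, n = 3), second to Rap1b. Radil (ENSMUSG00000029576, chr5:142470594-142536853, minus strand, 15 exons) was listed at 47, 52 and 111, or 18.9 ± 9.62 per kilobase, at rank 12191. The effectors thus stood at opposite ends of the 10 genes. The log2 ratio of Rasip1 to Radil per kilobase was 5.23 in mouse 1, 5.13 in mouse 2 and 3.92 in mouse 3, with a mean of 4.76 ± 0.73 (SD), or 27.1-fold, and it was 5.58 with the length of all annotated exons. Radil was the lowest of the 10 in each mouse.

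Radil was the 1 gene of the 10 whose mice lay far apart. Its values rested on about 48, 49 and 116 reads, and its coefficient of variation was 50.9% where counting alone would give 11.9%. Mouse 3 exceeded the mean of mice 1 and 2 by log2 1.16. A rise of mouse 3 to at least 2 times the mean of the others occurred in 3.89% of the 2212 genes with a mean between 35 and 140, a range of 2 times around that of Radil, which was set after its values had been seen. Of 6 mural markers, 3 were highest in mouse 3 as well, Myh11 (31, 118 and 240), Acta2 (67, 128 and 210) and Pdgfrb (212, 254 and 280), though each of them was also higher in mouse 2 than in mouse 1, where Radil was nearly level. The other 3 were not highest in mouse 3, with Rgs5 at 542, 615 and 505, Cspg4 at 134, 295 and 186 and Kcnj8 at 138, 85 and 119. None of the 6 was listed at 0, and their summed values were 1124, 1495 and 1540. A highest value in mouse 3 was not particular to mural markers. It was found for 3 of 5 fibroblast, 3 of 5 leukocyte, 2 of 4 lymphatic endothelial, 3 of 7 cardiomyocyte and 1 of 10 endothelial markers. Of 9356 genes of known length whose mean reached 200, as that of 3 of the 6 mural markers did, 29.7% were highest there. The part of mural RNA in the difference of Radil was not tested.

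Arhgap29 encodes the GTPase activating protein that RASIP1 and RADIL bring to Rap1. The gene (ENSMUSG00000039831) lies at chr3:121746190-121810402 on the plus strand, with 23 exons and 7603 bases in its canonical transcript. Its values were 2207, 2168 and 2464, second only to Heg1 among the 10, and its level was 299.8 ± 21.2 per kilobase (SD, n = 3), close under the lower bound of the highest 10% of genes at 334 per kilobase. By this length Arhgap29 was in the range of Rap1a, with log2 ratios of Rap1a to Arhgap29 of 0.20, 0.15 and -0.21, and above Krit1 in each mouse. Per kilobase of stretches without a copy in the genome, the mean of Rap1a was 428 and that of Arhgap29 304. The closeness of these genes thus depended on genomic copies of Rap1a.

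Except for Radil, the 10 genes varied little between mice. Of the 9 whose mean reached 200, 0 had a coefficient of variation above 20%, which 8.0% of the 9358 genes of such a mean had, a background at which a count of 0 of 9 says nothing particular of these genes. The coefficients of the 9 ran from 2.22% for Krit1 to 11.7% for Map3k3, around the median of 7.37% over genes. Within the 9, the place of mouse 3 went with transcript length. This mouse was the highest for 3 of the 9, Map3k3, Heg1 and Arhgap29, whose canonical transcripts are the longest of the 9, and 29.7% of 9356 genes were highest in this mouse. Mouse 3 was the lowest for 5 of the 9, Ccm2, Pdcd10, Rap1a, Rap1b and Rasip1, the shorter ones, and 39.0% of genes were lowest there. For Krit1 mouse 3 lay between the others.

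The same was seen across the table, as was found after the data had been seen. The 9356 genes were put in 4 classes of about equal number by length. In the shortest class the median log2 of mouse 3 over the mean of mice 1 and 2 was -0.11, in the next classes -0.05 and 0.02, and in the longest 0.10. The share of genes highest in mouse 3 was 7.39% in the shortest class and 54.8% in the longest. Against the median of its own length class, Heg1 at log2 0.21 lay 0.11 higher and Arhgap29 at log2 0.17 lay 0.07 higher. Map3k3 at log2 0.27 lay 0.25 above its class and just outside the middle 80% of it, and Pdcd10 (-0.23) and Rap1a (-0.21) lay just below the middle 80% of theirs. Whether mouse 3 differed in biology or in the making of its library cannot be told apart from 1 library.

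**Figure D3:**
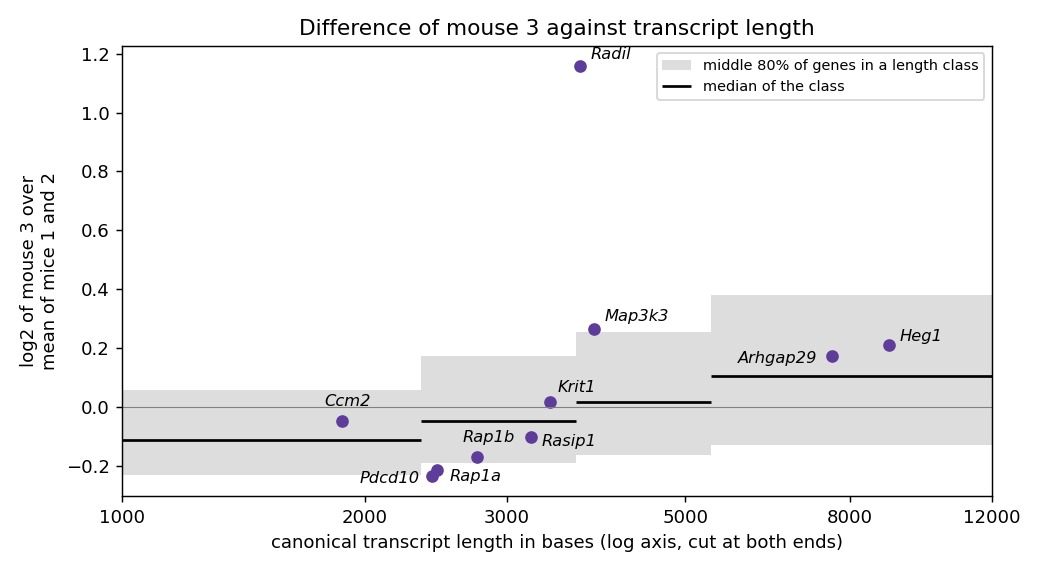
Log2 of the value of mouse 3 over the mean of mice 1 and 2 against canonical transcript length in bases (log axis, cut at both ends), with 1 point for each of the 10 genes, grey bands for the middle 80% of genes in each length class and black lines for their medians. The black lines climb from -0.11 to 0.10, 6 of the 10 points lie within the bands, Pdcd10 at -0.23 and Rap1a at -0.21 lie just below theirs and Map3k3 at 0.27 just above its own, and Radil lies apart at 1.16.

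Several of the 10 genes share exons with a neighbour. Izumo1, a sperm fusion gene on the same strand as Rasip1, overlaps it by 654 exonic bases and was listed at 6, 11 and 25. Reads over both genes were left out by the counting, so Rasip1 may be understated there. Its place under Rap1b was not tested without these bases. Limd2, on the strand opposite to Map3k3, was listed at 391, 402 and 402, and the lncRNA A030001D20Rik, opposite to Rasip1, at 21, 31 and 20. The antisense lncRNAs Gm15657 at Heg1 and Gm57364 at Map3k3 reached at most 6 and 30. Counting was by strand, so these antisense neighbours were kept apart from the 10 genes as far as the library kit keeps the strand.

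The wider pathway was read through 54 genes in 7 groups, all of them in the table and 6 of the groups described here, of which 18 were in the highest 10% per kilobase (background 10.0%) and 44 above the median of all genes. Their median was 231 per kilobase. Of the 48 whose mean reached 200, 3 had a coefficient of variation over 20% (background 8.0%). These were Rapgef6, an activator of Rap, Sipa1l1, an inactivator of Rap, and Cdc42bpb, a kinase downstream of Cdc42, and all 3 were highest in mouse 3. The genes named are the highest and the lowest of each group described, the closest relatives of the 10 genes, and some others chosen after their values were seen.

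Among 7 binding partners and relatives of the CCM proteins, the endothelial relative of Ccm2, Ccm2l, was the highest, with values of 858, 722 and 836 and 352 per kilobase. Ccm2 and Ccm2l stood at about the same level per kilobase (log2 ratios 0.08, 0.26 and 0.04, mean 0.13 ± 0.12), and their order depended on the length, with a mean log2 ratio of -1.28 on the length of all annotated exons. Itgb1bp1, which encodes the integrin-binding partner of KRIT1 known as ICAP1, stood at 218 per kilobase. The 3 GCKIII kinases that bind PDCD10 were unequal. Stk25 stood at 251 and Stk24 at 152 per kilobase, while Stk26 was listed at 10, 14 and 22, or 4.21 per kilobase, the lowest of the 54 genes.

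Of the 13 genes of the branch from MEKK3 to the KLF factors, 6 were in the highest 10%. Klf2, the shear-responsive factor that the CCM complex keeps low, led the group with values of 1505, 1523 and 1386 and 736 per kilobase, and Klf4 stood at 546 per kilobase. Both stood above the kinase genes that lead to them in each mouse, with Map2k5, the gene of MEK5, at 231 and Mapk7, the gene of ERK5, at 229 per kilobase. The lowest of the branch was Adamts4, a versican-cleaving protease, with values of 93, 256 and 211 and 42.5 per kilobase, and mouse 1 lay well below the other mice. The related Adamts1 stood at 327 and Adamts5 at 55.1 per kilobase.

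The genes that switch Rap on and off are the exchange factors and the GTPase activating proteins. Among 8 activators, the median was 313 per kilobase and 3 were in the highest 10%, led by Rasgrp2, a calcium-regulated exchange factor, at 609 per kilobase, with Rapgef3, which encodes the cAMP sensor EPAC1, at 318 and Rapgef4, which encodes EPAC2, at 60.9 per kilobase. Among 7 inactivators, the median was 125 per kilobase and 1 was in the highest 10%, Sipa1 at 336 per kilobase, while Rap1gap was the lowest with values of 45, 46 and 62 and 12.2 per kilobase. The median of the activators was above that of the inactivators in each mouse (320, 295 and 326 against 116, 104 and 155 per kilobase), a difference that was not tested. The 3 Rap2 GTPases, relatives of Rap1, stood at 282 for Rap2a, 174 for Rap2c and 89.6 for Rap2b per kilobase of canonical transcript, below Rap1a at 309. For Rap2a this order turned with the length, since divided by the coding length alone Rap2a stood at 2223 and Rap1a at 1377. The values count reads over untranslated exons too, so this turn depends on how much of each transcript is coding.

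Of 8 other Rap1 effectors and junction proteins, 3 were in the highest 10%. Cdh5, whose product VE-cadherin is the adhesion molecule of these junctions and whose promoter drives the Cre of these mice, was the highest, with values of 2808, 2860 and 2930 and 713 per kilobase. This level per kilobase of canonical transcript was above that of each of the 10 genes, whereas the deposited values of Heg1 were above those of Cdh5 in each mouse. Divided by the coding length alone, Rap1b (2864) and Rap1a (1377) were above Cdh5 (1219). The values also count reads over untranslated exons, so these figures depend on how much of a transcript is coding. Afdn, which encodes the Rap1 effector afadin, stood at 342 per kilobase, and Rassf5, which encodes the leukocyte Rap1 effector RAPL, was the lowest with values of 29, 40 and 64 and 12.7 per kilobase.

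**Figure D4:**
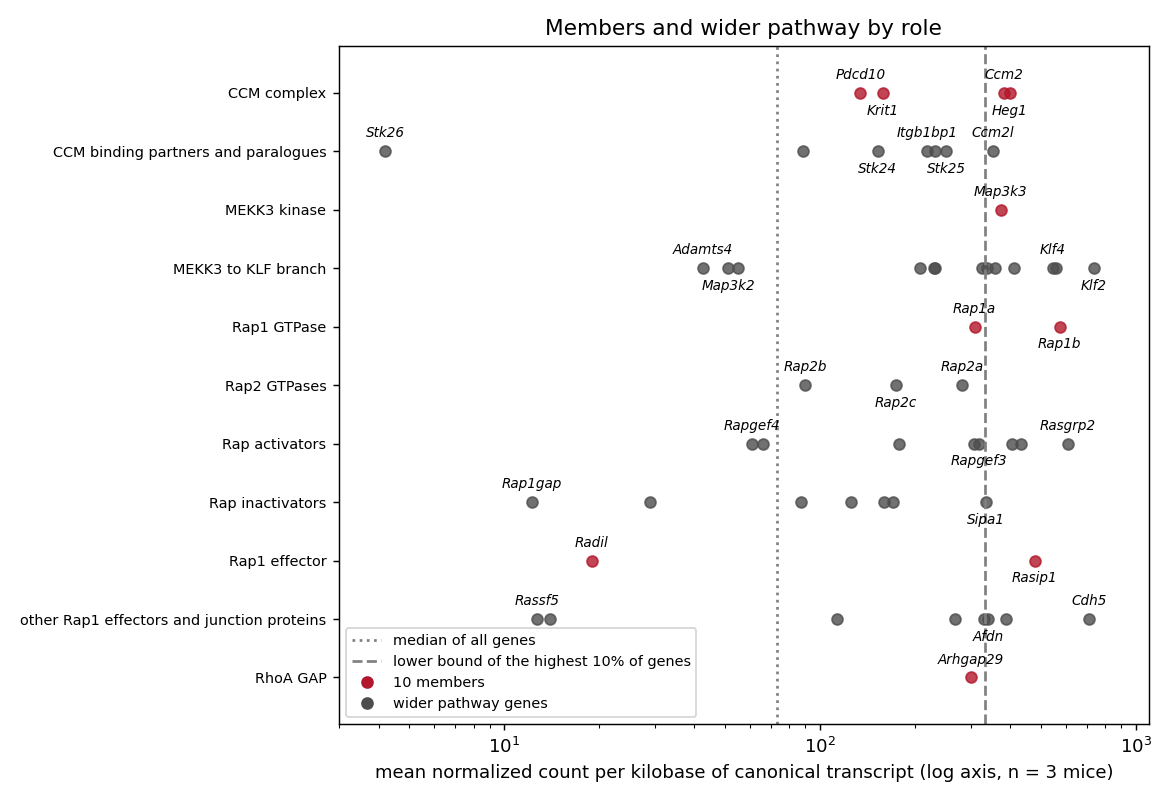
Mean normalized count per kilobase of canonical transcript (log axis, n = 3 mice) of the 10 genes in red and of the wider pathway genes of the 6 groups described in grey, with 1 line a role and the dotted and dashed lines for the median of all genes (73.0) and the lower bound of the highest 10% (334). In the line of Rap1 effectors, Radil at 18.9 and Rasip1 at 478 lie far apart, and Stk26 at 4.21 is the lowest point of the plot.

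**Figure D5:**
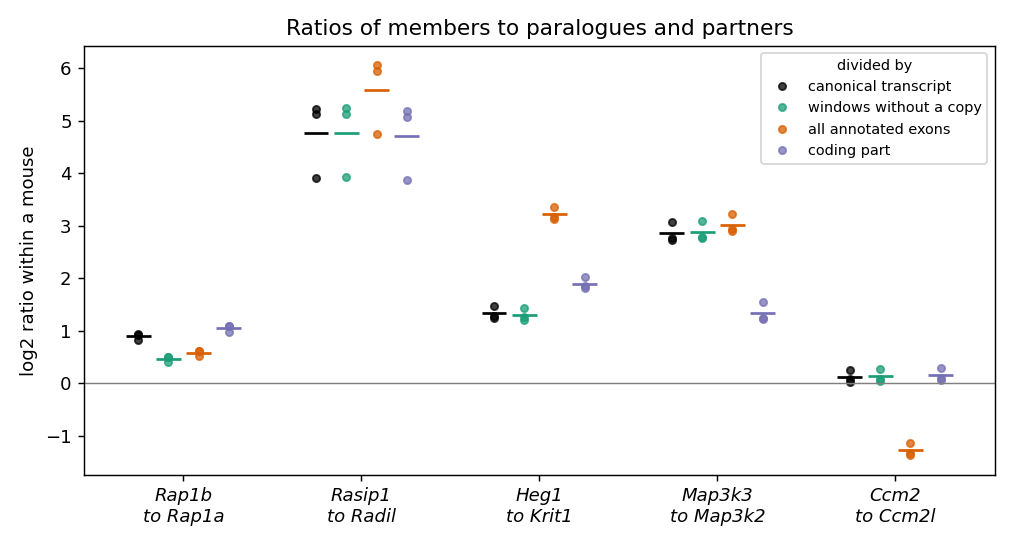
Log2 ratio within a mouse of a gene to its paralogue or partner, with 1 point a mouse, a short line for the mean, and a colour for each of 4 lengths the values were divided by. Rap1b to Rap1a, Rasip1 to Radil, Heg1 to Krit1 and Map3k3 to Map3k2 stay above 0 with each length, while Ccm2 to Ccm2l is -1.28 when all annotated exons are used.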

How the data were processed

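Ribosome-associated RNA of 3 EC-RiboTag hearts was read by single-end sequencing over 72 bases. Per the submitters' processing notes and the study's methods, reads were trimmed (Trimmomatic 0.39), aligned to mm39 (STAR 2.7.11a), cleared of duplicates (Picard 3.1.1) and of multi-mapping, ribosomal and mitochondrial reads, counted per gene by strand (featureCounts 2.0.4) and normalized (DESeq2 1.36.0). The deposited values, called normalized counts in the text, are by unit a score and not raw counts, because the authors had divided counts by size factors and rounded them, and no count test was run. Duplicate removal from single-end reads without molecular identifiers may understate high levels per kilobase, the more the higher they are. Ratios and steps between genes may therefore be too small. The highest levels in the marker lists were 819 per kilobase for Myl2 and 809 for Eng. How far this reached the 10 genes was not tested. Counting error covers counting only.

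Levels per kilobase used the Ensembl canonical transcript of the GENCODE vM39 annotation of GRCm39, the assembly of mm39. Gene coordinates are those of the deposited table. The table holds no other sample. Every 72-base stretch of each canonical transcript was searched for exact copies in the genome with numba 0.67.0. Ratios were taken within mice with a pseudocount of 0.5 and tested with an exact two-sided sign-flip permutation test. The replicates are biological per the labels. The coefficient of variation was compared with 20% in genes whose mean reached 200. The steps were tested on simulated data. Named genes are all 10, the highest and lowest of each pathway group with 14 relatives, the neighbours of the 10 within 1000 bases or sharing exons, and the 3 genes nearest Heg1. Other genes named were chosen after their values were seen. Markers are given as lists. The result of 1 pathway group is not reported here. The 10 genes and all lists were chosen with earlier results of these data known. Alternatives are given in the closing section. Python 3.11.15, numpy 2.4.6, pandas 2.3.3 and matplotlib 3.10.9 were used.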

Additional observations from a re-analysis of the deposited data

How the results depend on the processing

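Depth limited Radil and Stk26, which rested on few reads, and 3 mice of 1 condition limited all tests, since the smallest sign-flip p was 0.25. Of 91 alternatives, 81 were kept, in that a ratio kept its direction, a count stayed close to its value or the median place moved by less than the spread over mice. Of the 91, 50 asked only whether 1 of 5 ratios kept its direction. Pseudocounts and leaving out a mouse could hardly change that for ratios far from 0, so the count of 81 is a weak measure. Ratios that kept their direction could still change much in size, as Heg1 to Krit1 from log2 1.34 to 3.22 with the length of all annotated exons and Map3k3 to Map3k2 from log2 2.86 to 1.34 with the coding length. The number of the 10 genes in the highest 10% per kilobase, 5, was 3 with the length of all annotated exons and 2 with the coding length. Their median place, 9.87% from the top, was 18.1% with the length of all annotated exons, 24.4% with the coding length, 11.9% with no division by length, 12.5% among genes of at least 10 in every mouse and 11.8% among protein-coding genes, an alternative chosen after seeing the data. With a mean of at least 10 in place of 200, 1 gene (Radil) had a coefficient of variation over 20%. The mean log2 ratio of Ccm2 to Ccm2l, 0.13, was -1.28 with the length of all annotated exons and -0.16 with no division by length. In each of these the cause is the alternative's own length or set of genes. Other scalings, pseudocounts and leaving out each mouse ended no call, and Rasip1 to Radil ran from 4.52 without mouse 1 to 5.18 without mouse 3. No paired analysis was possible because all libraries belong to 1 group.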

Other observations

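Markers of the other cell types a heart homogenate holds were read as summed values of each list. The 7 cardiomyocyte markers had the largest of these sums, 17815, 18773 and 21793 in mice 1, 2 and 3, with mouse 3 the highest. Of the 7, 3 were highest in mouse 3, namely Ttn (7379, 7743 and 10190), Ryr2 (3280, 3667 and 4486) and Tnnt2 (1309, 1382 and 1407). Ttn and Ryr2 have long canonical transcripts, of 107543 and 16853 bases. Tnni3, Actc1 and Myl2 were lowest in mouse 3, and Myh6 was highest in mouse 2. The 4 lymphatic endothelial markers, whose cells also carry an active Cdh5 promoter, summed to 2583, 3252 and 3735 in mice 1, 2 and 3, and none of them was in the highest 10% of genes per kilobase. The highest was Flt4, the VEGF-C receptor gene, at 262 per kilobase, and the lowest Pdpn at 52.1 per kilobase. The 5 fibroblast markers summed to 1857, 2122 and 2242, from Tcf21 at 18.2 to Dcn at 131 per kilobase, and the 5 leukocyte markers to 426, 630 and 633, from Itgam at 7.03 to Lyz2 at 72.6 per kilobase, below the median of all genes. Each of these 4 sums was lowest in mouse 1, while the sum of the 10 endothelial markers was highest there, at 26033 against 24976 and 24993. The lowest sum of the 10 CCM and Rap1 genes was that of mouse 2, at 12546, against 12647 in mouse 1 and 13273 in mouse 3. The cardiomyocyte sum was highest in mouse 3 too, though most of its genes were not. The part of cardiomyocyte RNA in this was not tested.

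The length trend of mouse 3 had its counterpart in the other mice. Across 9356 genes, which are not independent replicates, Spearman's rank correlation between transcript length and the log2 of a mouse over the mean of the others was 0.47 for mouse 3, -0.27 for mouse 1 and -0.20 for mouse 2. These 3 values share the same libraries, so they are not separate results.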
